A study of Mus musculus with 31 samples.

Results

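Transcripts of 9 transcription factors that specify or shape monocytes and macrophages were followed across single mouse lung cells. The genes were taken by symbol: Spi1, Cebpa, Cebpb, Maf, Klf2, Klf4, Irf8, Nr4a1 and Zeb2. All 9 had a row among the 47069 genes measured, and all 9 were present in at least 1 of the 31 labelled cells. A gene was called present in a cell at an FPKM of 1 or more; FPKM is a fragment count scaled to transcript length and to the size of the library. The 31 cells came from the right lung lobes of 10-week-old Csf1r-GFP mice, 7 days after a sham operation that opened the chest. Csf1r encodes the receptor for the growth factor CSF1, and the reporter marks cells that use its regulatory sequences. The sort gated CD45, carried by leukocytes, the GFP reporter and F4/80, carried by macrophages. Ly6G, carried by neutrophils, is named in the sort label with no sign. The labels call the sorted cells macrophages, name no animal and give a single condition, so all cells count as 1 sample. No test was therefore run over cells, and the intervals below reflect counting error over cells alone.

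Macrophages and monocytes share a core of lineage factors. PU.1, the ETS protein encoded by Spi1, binds the control regions of many myeloid genes and is required for the lineage, and C/EBPα and C/EBPβ, basic leucine zipper proteins encoded by Cebpa and Cebpb, act beside it. Irf8 encodes a partner of PU.1 that favours monocytes over granulocytes. Klf2 and Klf4 encode zinc finger proteins of the Krüppel-like family, and Klf4 is needed for circulating monocytes in mice. Nr4a1 encodes an orphan nuclear receptor, required in mice for Ly6C-low nonclassical monocytes and also induced within minutes by many stimuli. Zeb2 encodes a zinc finger repressor that helps tissue macrophages keep their identity. Maf encodes the large leucine zipper protein c-Maf, found in resident macrophages.

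The cells were read in sets defined by genes outside the 9. The 20 cells with a Lyz2 level of 1000 FPKM or more are called Lyz2-high here. Lyz2 encodes lysozyme, an abundant product of monocytes, macrophages and neutrophils. Its median was 23257 FPKM in the Lyz2-high cells and 30.7 FPKM in the other 11 cells. The cell just inside the threshold, C7, had 1229 FPKM and the cell just outside it, D10, had 553 FPKM. Of the genes behind the sort label, Csf1r was present in 20 of 20, as were the phagocyte oxidase subunit Cybb and the signalling adaptor Tyrobp. Of 8 neutrophil markers, S100a9, Retnlg, Ltf and Lcn2 were present in none of these 20 cells. The other 4 were present in some: Cxcr2 in 10 at up to 9.74 FPKM, Csf3r in 9 at up to 189 FPKM, Ly6g, which encodes the Ly6G of the sort label, in 7 at up to 115 FPKM and S100a8 in 3 at up to 1594 FPKM. In the other 11 cells Cxcr2 was present in 10, Csf3r in 9, and Ly6g and S100a8 in 0. The sum of the list was 0 to 1768 FPKM, against 0.64 to 125 FPKM in the other 11. The 5 T cell and 5 NK cell markers were at 0 in the 20 cells. Of 10 alveolar macrophage markers 9 were present in none, among them Siglecf and Marco; the exception, Chil3, is also on the classical monocyte list. Total counts were 521492 to 4059833 (median 1591648) in the Lyz2-high cells and 120835 to 1592301 (median 413337) in the other 11. Nuclear protein-coding genes held 87.4% to 95.6% of counts in the Lyz2-high cells and 32.8% to 87.9% in the other cells. Of the other 11 cells, 10 were below 80% on that measure, so their values are given beside the Lyz2-high values; the part of library quality in any difference was not tested.

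Spi1 and Cebpb were present in nearly every Lyz2-high cell, Zeb2 and Nr4a1 in most, and the remaining 5 factors in a minority or an even split. For Spi1 the share was 19 of 20 (95%, with an exact 95% interval by Clopper and Pearson of 75.1 to 99.9). Cebpb was present in 20 of 20 (100%, 83.2 to 100). Zeb2 was present in 16 (80%, 56.3 to 94.3) and Nr4a1 in 13 (65%, 40.8 to 84.6). These 4 genes encode the PU.1 and C/EBPβ core, a repressor and a stimulus-responsive receptor. Klf4 was present in 10 cells (50%, 27.2 to 72.8), Klf2 in 9 (45%, 23.1 to 68.5) and Irf8 in 8 (40%, 19.1 to 63.9). Cebpa and Maf were each present in 4 (20%, 5.73 to 43.7). The intervals of neighbours in this order overlapped throughout, so the order of adjacent genes is not resolved with 20 cells. Of the 9 genes, 5 were present in at least 50% of Lyz2-high cells, against 13.2% of the 10818 genes present in any of these cells. For presence in at least 95% the count was 2 of 9, Spi1 and Cebpb, against 2.14% of those genes. The 9 genes were chosen with earlier results of these data known, so these counts are descriptions and not tests.

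**Figure D1:**
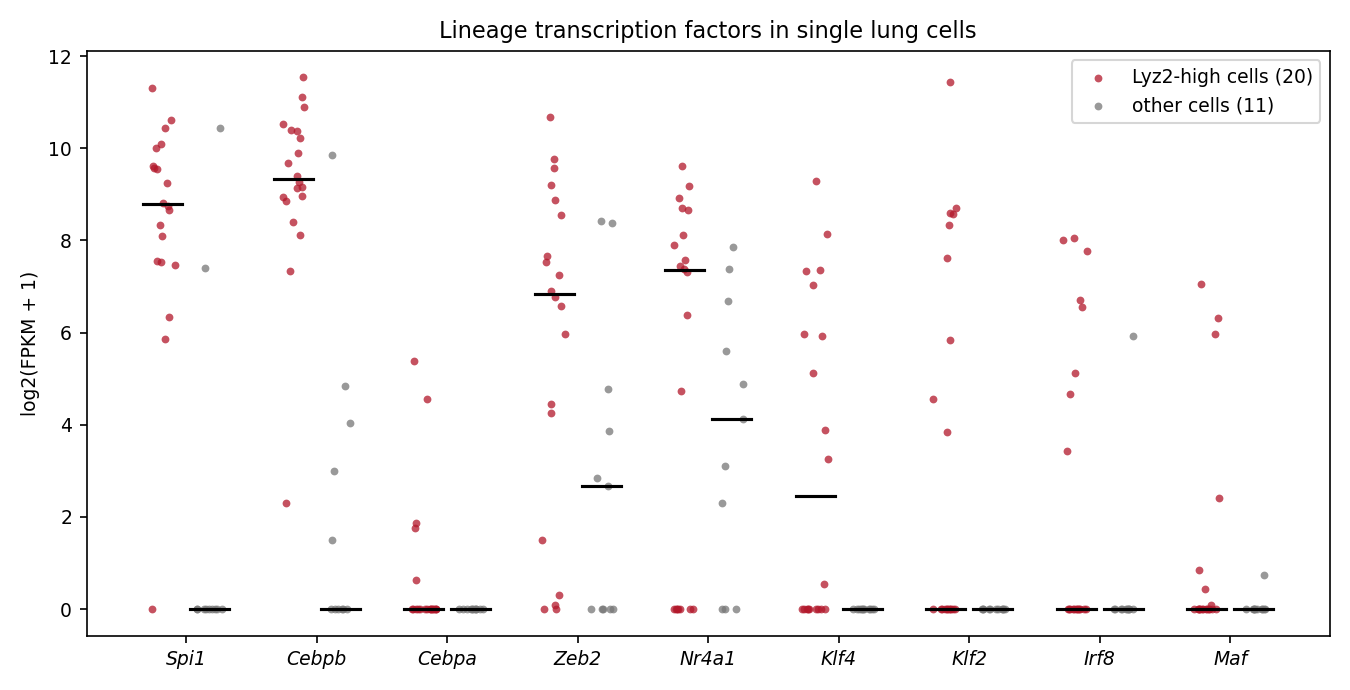
Level of each lineage factor as log2(FPKM + 1), each point 1 cell, in the 20 Lyz2-high cells (red, left) and the 11 other cells (grey, right), with medians as black bars. Spi1 and Cebpb have high medians in Lyz2-high cells, with 1 cell each far below, while Klf4, Klf2, Irf8, Maf and Cebpa are split between cells at or near 0 and cells with clear signal.

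Levels, which FPKM scales to transcript length, gave the same leading genes. The median over the 20 Lyz2-high cells was 644 FPKM for Cebpb, 439 for Spi1, 162 for Nr4a1, 114 for Zeb2 and 4.52 for Klf4, and it was 0 for Klf2, Irf8, Cebpa and Maf. By median FPKM, Cebpb ranked 220 and Spi1 ranked 298 among the 10818 genes. In cells where it was present, Klf2 nevertheless had a median of 322 FPKM, above the 168 FPKM of Zeb2 in the cells that held it. The genes with low shares were thus not all genes of low level. Cebpa was, with a median of 12.6 FPKM where present.

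Each Lyz2-high cell held between 4 and 7 of the 9 factors, with a median of 5. Of these, 3 cells held 6 and 3 held 7, against 8 cells with 5 and 6 cells with 4. The other 11 cells held 0 to 4, with a median of 2. A median of 3200 genes was present in them against 2415 in the Lyz2-high cells. Their median total was 413337 counts against 1591648, and the part of depth and library quality in these numbers was not tested. Klf4, Klf2, Cebpa and Maf were present in none of the other 11 cells, which allows a share of up to 27.3%. Spi1 was present in 2 of them, Irf8 in 1, Cebpb in 5 and Zeb2 in 6. Nr4a1 was the exception to this order, present in 8 of the 11 other cells against 13 of the 20 Lyz2-high cells, at 230 FPKM at most. When every cell was thinned to 120829 counts and presence was set at 1 count or more, the shares in Lyz2-high cells were 19 of 20 for Spi1, 19 for Cebpb, 16 for Zeb2 and 13 for Nr4a1. In the other cells they were 2 of 11 for Spi1, 4 for Cebpb, 6 for Zeb2 and 7 for Nr4a1.

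Spi1 (chromosome 2, 91082390 to 91115756, plus strand, GRCm38) was present in all Lyz2-high cells but 1. Across the 20 Lyz2-high cells its level was 0 to 2536 FPKM with a median of 439 FPKM. Cell B7 was at 0, the next lowest was B4 at 57.5 FPKM with 19 counts, and A10, A6 and E7 were highest with 2536, 1569 and 1394 FPKM. B7 had 1027456 counts, below the Lyz2-high median of 1591648, with 2486 genes present and 5 of the factors. Why Spi1 was at 0 in B7 was not tested. In the other 11 cells Spi1 was present in E5 at 1388 FPKM and D8 at 169 FPKM and was at 0 in the remaining 9.

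The FPKM of Spi1 depended on the transcript length assigned to its reads. Dividing counts scaled to the library total (CPM) by FPKM gives the length behind each value, and in the 18 Lyz2-high cells with at least 20 Spi1 counts this length was 0.436 kb in C8 to 1.84 kb in F1, a 4.23-fold range. Shorter lengths raise FPKM for the same number of reads. The median length was 0.779 kb in 9 cells with Ly6c2, the gene of a monocyte surface antigen, and 1.45 kb in 9 cells without it. The median Spi1 level was 908 FPKM in the 10 Ly6c2-positive cells and 363 FPKM in the 10 Ly6c2-negative cells. In CPM, which uses no length, the medians were 546 in Ly6c2-positive and 514 in Ly6c2-negative cells. The medians of the read counts were thus close where the FPKM medians were not, and which transcripts the cells held was not tested. Zeb2 had an even wider range of lengths, 0.409 kb in G8 to 3.81 kb in D4, or 9.32-fold over 15 cells, and Irf8 ranged from 1.74 to 2.67 kb. Cebpb, Klf2, Klf4, Nr4a1 and Maf each had nearly 1 length in all cells, so their FPKM values follow their counts. For all 9 genes the 3 cells with the highest FPKM were also the 3 highest by CPM.

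**Figure D2:**
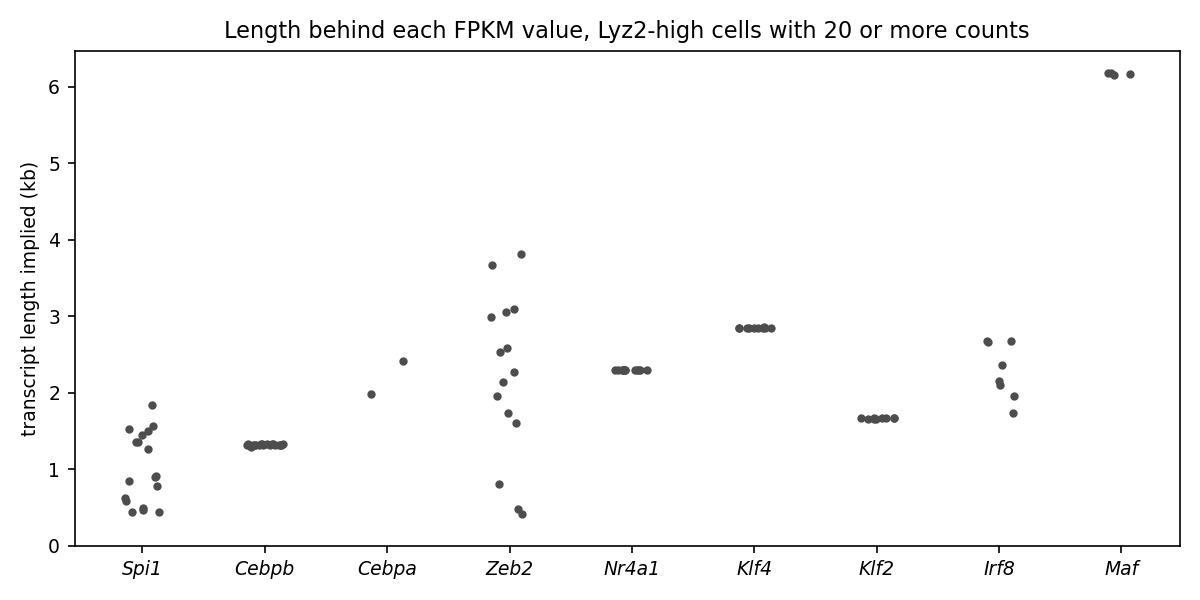
Transcript length implied by the deposited counts and FPKM values, in kb, with each point a Lyz2-high cell that had at least 20 counts of the gene. Spi1 (0.436 to 1.84 kb) and Zeb2 (0.409 to 3.81 kb) spread widely, whereas Cebpb, Nr4a1, Klf4, Klf2 and Maf each lie in a narrow band.

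Cebpb (chromosome 2, 167688915 to 167690418, plus strand) was the only factor present in all 20 Lyz2-high cells. Its level was 3.94 to 2976 FPKM with a median of 644 FPKM. F10, H4 and A6 were highest with 2976, 2213 and 1900 FPKM, and B4 was lowest, on 4 counts; the other 19 cells had 160 FPKM or more. The median was 402 FPKM in the 6 cells with C1qb, a complement gene of tissue macrophages, and 884 FPKM in the 14 without it, and the ranges of 3.94 to 1193 and 278 to 2976 FPKM overlapped. Of the 50-base stretches in Cebpb transcripts, 18.1% were also found in transcripts of the overlapping gene Tmem189, so some reads cannot be assigned to either with certainty. Tmem189 was present in 6 of the 20 cells, at 373 FPKM at most, in B4.

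Cebpa (chromosome 7, 35119293 to 35121928, plus strand), which encodes the other C/EBP of early myeloid cells, was present in only 4 Lyz2-high cells. Its level was 40.8 FPKM in H5, 22.6 FPKM in C7, 2.63 FPKM in B4 and 2.39 FPKM in B9. Only H5 and C7 had 10 or more counts, with 400 and 80. H5, C7 and B4 were C1qb-positive and B9 was not, so Cebpa was present in 3 of 6 C1qb-positive and 1 of 14 C1qb-negative cells. In all 4 cells Cebpb was present too.

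Zeb2 (chromosome 2, 44983632 to 45117395, minus strand) ranged 900-fold in FPKM between the Lyz2-high cells that held it, against 44.1-fold for Spi1. Cebpb ranged 755-fold on the same measure. The Zeb2 range rests on D6, which had 1.83 FPKM on 9.82 counts, and the next lowest cell, F10, had 18.1 FPKM. The standard deviation of Zeb2 was smaller than that of Spi1, at 416 against 628 FPKM over the 20 cells. Among Lyz2-high cells its level was 0 to 1647 FPKM with a median of 114 FPKM, highest in H8, C6 and B9 with 1647, 874 and 758 FPKM. By CPM C6 was above H8, with 1398 against 1338, with an implied length of 1.60 kb in C6 and 0.812 kb in H8. Zeb2 was below 1 FPKM in A12, B4, C7 and C11. Its antisense gene Zeb2os was present in 11 of the 20 cells, at 189 FPKM at most. The library kit does not mark the strand, and Zeb2os was present without Zeb2 in 1 cell. Zeb2 was present in 9 of 10 Ly6c2-positive and 7 of 10 Ly6c2-negative cells, and 9 and 4 of these had 50 FPKM or more.

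Nr4a1 (chromosome 15, 101254269 to 101274795, plus strand) was either absent or plainly detected. It was at 0 in 7 Lyz2-high cells and 25.6 to 781 FPKM in the other 13, with D6, H4 and B7 highest at 781, 578 and 483 FPKM. It was present in 3 of 6 C1qb-positive and 10 of 14 C1qb-negative cells, and in 6 of 10 Ly6c2-positive and 7 of 10 Ly6c2-negative cells. The shares in Ly6c2-positive and Ly6c2-negative cells were thus close, with intervals of 26.2% to 87.8% and 34.8% to 93.3%. Its family members Nr4a2 and Nr4a3 were present in 8 and 9 of the 20 cells.

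Klf4 (chromosome 4, 55527143 to 55532466, minus strand) and Klf2 (chromosome 8, 72319033 to 72321656, plus strand) were present in overlapping sets of cells. Klf4 had 625 FPKM in D4, 281 in C8, 164 in G8, 161 in A6 and 131 in H4, and 8.58 to 62.0 FPKM in the other 5 cells that held it. Klf2 had 2787 FPKM in D4, 416 in C11, 386 in C6, 382 in F1 and 322 in E7, and 13.4 to 194 FPKM in the other 4. D4 was the highest cell for both genes. For Klf2 the gap between D4 and the next cell was wide. Klf2 or Klf4 was present in 14 of the 20 cells and both in 5, where the 2 shares alone would give 4.5. No 50-base stretch was shared between transcripts of these 2 relatives, or between any 2 of the 9 factors, so their reads could be told apart.

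Irf8 (chromosome 8, 120736358 to 120756694, plus strand) was present in 8 Lyz2-high cells. Its level was 263 FPKM in D4, 258 in C7, 217 in H8, 104 in B4 and 92.7 in C6, and then 34.0 in D6, 24.3 in A12 and 9.75 in B7. The 5 highest cells were all without Ly6c2, and the 2 Ly6c2-positive cells with Irf8, A12 and B7, were the lowest. Outside the Lyz2-high cells Irf8 was present in C4 at 59.7 FPKM.

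Maf (chromosome 8, 115682942 to 115707794, minus strand) exceeded 50 FPKM in 3 cells. It had 132 FPKM in F1, 79.0 in C6 and 61.6 in H5, all C1qb-positive, and 4.30 FPKM in E12, which was Ly6c2-positive. The other C1qb-positive cells, B4, C7 and H8, had 0 FPKM. F1 also stood out by its interstitial macrophage markers, with 9 of 10 present (all but Lyve1), including Pf4 at 21061 FPKM and Mrc1, a mannose receptor, at 1887 FPKM. The other 5 C1qb-positive cells held 5 of the 10.

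Sequence upstream of the start sites is shown for the factor found in all Lyz2-high cells, Cebpb, for Klf4, which differed most between cell sets, and for Zeb2, the only factor with the ETS core searched. The sequences are the 250 bases before the RefSeq start on the strand of the gene (GRCm38.p6), at chr2:167688665-167688914 (plus), chr4:55532476-55532725 (minus) and chr2:45117443-45117692 (minus). Capitals mark the GC box GGGCGG or its reverse complement CCGCCC in Cebpb and Klf4, where neighbouring matches overlap, and the ETS core GAGGAA in Zeb2.
Cebpb: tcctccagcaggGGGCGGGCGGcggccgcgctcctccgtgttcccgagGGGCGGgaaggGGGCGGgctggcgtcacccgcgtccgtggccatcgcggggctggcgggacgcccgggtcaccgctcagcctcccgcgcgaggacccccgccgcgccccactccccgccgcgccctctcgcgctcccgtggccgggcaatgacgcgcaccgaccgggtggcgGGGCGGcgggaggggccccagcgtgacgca
Klf4: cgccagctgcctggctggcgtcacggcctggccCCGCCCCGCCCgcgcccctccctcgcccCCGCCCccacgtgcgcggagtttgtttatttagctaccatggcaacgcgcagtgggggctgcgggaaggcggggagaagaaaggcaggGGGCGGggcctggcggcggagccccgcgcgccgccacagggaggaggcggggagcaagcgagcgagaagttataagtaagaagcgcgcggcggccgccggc
Zeb2: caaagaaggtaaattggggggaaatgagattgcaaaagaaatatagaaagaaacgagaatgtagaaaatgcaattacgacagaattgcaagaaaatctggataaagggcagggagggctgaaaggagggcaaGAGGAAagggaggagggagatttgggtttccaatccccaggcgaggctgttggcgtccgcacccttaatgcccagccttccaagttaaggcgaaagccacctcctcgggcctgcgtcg
RefSeq windows were matched for 7 of the 9 factors (Cebpa, Cebpb, Klf2, Klf4, Irf8, Nr4a1 and Zeb2), with 11 start sites in all. The GC box was in 8 of the 11 windows, covering 6 of the 7 genes, against 32.7% of 32851 promoter windows of that length. Zeb2 gave 4 of the 11 windows. Those of its start sites 2 and 3 overlap and hold the same match, so the windows are not independent. Cebpb had 5 matches and Klf4 had 4. GAGGAA was found in Zeb2 windows only, and in 23.3% of all windows. The palindromes TGACGTCA and TTGCGCAA were in none of the 11, against 1.55% and 0.164% of all windows. Both strands were searched, and a match describes the letters only.

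Which factors a cell held varied from cell to cell around the common Spi1 and Cebpb pair. The 20 Lyz2-high cells showed 18 different combinations of the 9 factors, and no combination was held by more than 2 cells. Spi1, Cebpb and Zeb2 were present together in 15 cells. Only 1 cell held none of Cebpa, Maf, Klf2, Klf4 and Irf8, so nearly all had at least 1 of the sparser factors. Klf4 or Irf8 was present in 15 cells, and both in 3.

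Co-detection was set against the number of shared cells that the 2 shares alone would give. Of the 36 pairs, 30 were within 1 cell of that number. The pair above it was Klf2 with Nr4a1, shared by 7 cells where 5.85 were expected. That count of 1 pair became 0 when any of B7, B9, C6, C8, D4, E7, E12, H4 or H5 was left out. Among all gene pairs with each gene in 4 or more Lyz2-high cells, 16.2% exceeded expectation by at least 1 cell and 14.1% fell short by at least 1. The 5 pairs of lineage factors that fell short were Maf with Klf4, shared by 0 cells where 2.0 were expected, and Maf with Nr4a1, shared by 1 where 2.6 were expected. The others were Irf8 with Zeb2 (5 against 6.4), Cebpa with Zeb2 (2 against 3.2) and Klf4 with Irf8 (3 against 4.0). Of the 36 pairs, the 15 with Spi1 or Cebpb could not depart from expectation by 1 cell, since these genes were present in nearly all cells. The 1 pair above and the 5 below thus come from 21 pairs, and the background was not limited in the same way, so the shares are not compared with it. Depth is common to all genes of a cell. Maf and Klf4 were not seen together at 1 FPKM in any of the 31 cells; F1, with the highest Maf, had Klf4 at 0.46 FPKM on 3 counts.

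**Figure D3:**
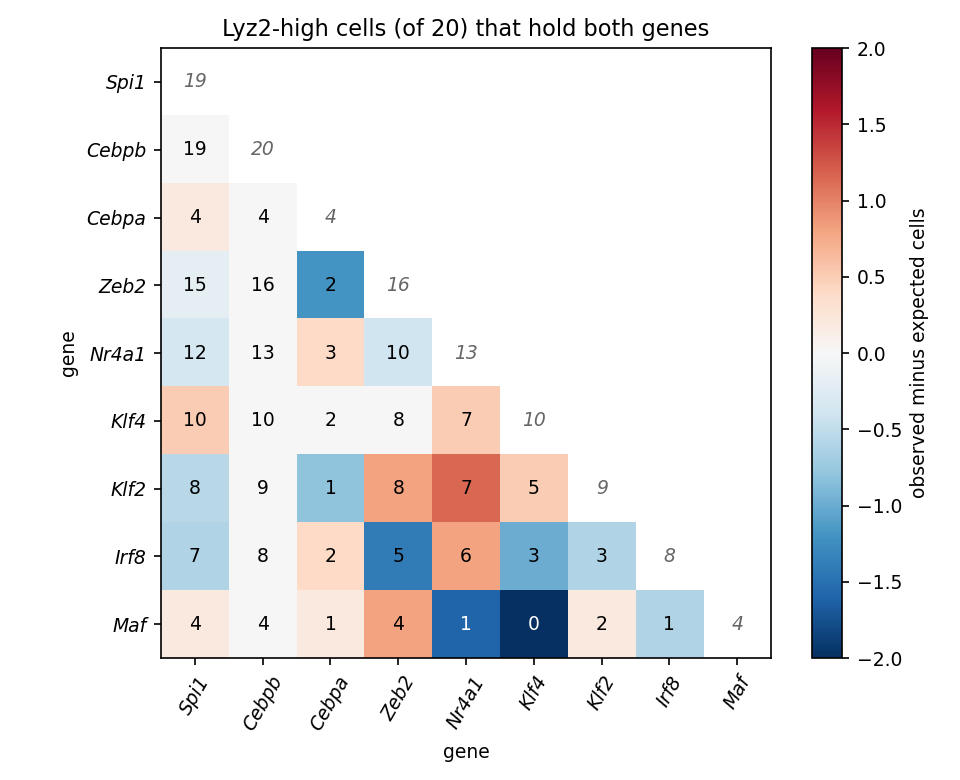
Number of Lyz2-high cells, of 20, in which both genes of a pair were present, with the number of cells for each gene alone in italics on the diagonal. Colour gives the observed minus the expected number, red where more cells and blue where fewer cells shared the pair; Maf with Klf4 is the most negative at 0 observed against 2.0 expected.

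The factors were next compared between cells with and without C1qb, at 1 FPKM or more. The 6 C1qb-positive cells, B4, C6, C7, F1, H5 and H8, had 3729 to 13306 FPKM of C1qb, and C1qa, which encodes another chain of the same complement protein, was present in all 6 and in none of the 14 C1qb-negative cells. Maf was present in 3 of 6 C1qb-positive and 1 of 14 C1qb-negative cells, a difference of 42.9 percentage points. Cebpa showed the same counts. Irf8 was present in 4 of 6 C1qb-positive and 4 of 14 C1qb-negative cells, a difference of 38.1 points. Klf4 ran the other way, in 1 of 6 C1qb-positive and 9 of 14 C1qb-negative cells, a difference of -47.6 points. None of the 9 reached a difference of 50 points, which 1.75% of 10817 genes reached upward and 1.33% downward. The exact intervals of the shares overlapped for each of these 4 genes, as for Klf4 with 0.421% to 64.1% in C1qb-positive and 35.1% to 87.2% in C1qb-negative cells. Median total counts were 2177838 in the C1qb-positive and 1433691 in the C1qb-negative cells. With presence set at 1 count or more, Cebpa was in 3 of 6 C1qb-positive and 2 of 14 C1qb-negative cells, and in 3 and 0 after every cell was thinned to equal depth. Maf was in 3 and 4 cells by that measure and in 3 and 2 after thinning. Klf4 was in 2 and 9 before and 1 and 9 after thinning, and Irf8 in 4 and 4 both times.

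Markers of B cells moved with C1qb. The B cell list, of 5 genes, summed to 345 to 1045 FPKM in the 6 C1qb-positive cells and to 0 to 508 FPKM in the 14 C1qb-negative cells, where D6 alone held 1 of its genes at 1 FPKM or more. Ighm, which encodes the heavy chain of immunoglobulin M, made up nearly all of that sum in 5 of the 6 cells, with Cd79a at 0 in all 20. Cell C7 also held Ms4a1, which encodes CD20, at 54.6 FPKM and Cd79b, a chain of the B cell receptor, at 97.5 FPKM. C7 had the lowest Lyz2 and, with 3523, the most genes present of the Lyz2-high cells, was the only C1qb-positive cell with Klf4, and had the second highest Irf8. Without C7, Klf4 was present in 0 of 5 C1qb-positive and 9 of 14 C1qb-negative cells (-64.3 points), and Maf in 3 of 5 and 1 of 14 (52.9 points), so both then passed 50 points. Irf8 was then present in 3 of 5 and 4 of 14 (31.4 points). Of the neutrophil markers, Ly6g was present in 0 of 6 C1qb-positive and 7 of 14 C1qb-negative cells and S100a8 in 0 and 3. Csf3r was present in 2 and 7 of these cells and Cxcr2 in 1 and 9, and S100a9, Retnlg, Ltf and Lcn2 in none. The part of B cell and neutrophil transcripts in these values was not tested. Leaving out each of the 20 cells in turn gave 0 to 2 factors past 50 points, with the count above 0 for 12 of the 20 (B4, B7, B9, C6, C7, C11, D6, E12, F1, F10, H5 and H8), so which factors pass depends on single cells. The 4 that passed in at least 1 of these runs were Cebpa, Maf, Klf4 and Irf8, while Spi1, Cebpb, Klf2, Nr4a1 and Zeb2 stayed below 50 points in all of them.

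A further division by Ly6c2 at 1 FPKM or more was chosen after the values had been seen. Its 10 positive cells were A6, A10, A12, B7, B9, C8, E7, E12, G8 and H4, none of them C1qb-positive, and its 10 negative cells comprised the 6 C1qb-positive cells with C11, D4, D6 and F10. The 10 classical monocyte markers, of which Ly6c2 is 1, summed to 8933 to 26710 FPKM in the Ly6c2-positive cells and to 8.68 to 22906 FPKM in the Ly6c2-negative cells, the highest of these in C11, which held 8 of the 10. Klf4 was present in 8 of 10 Ly6c2-positive cells (44.4% to 97.5%) and 2 of 10 Ly6c2-negative cells (2.52% to 55.6%), a difference of 60 points. Of 10817 genes 1.12% were higher and 1.08% lower by 50 points or more. Those genes again include many in too few cells to reach 50 points, so both shares are lower than among genes that could. Median Klf4 was 47.9 FPKM in Ly6c2-positive and 0 FPKM in Ly6c2-negative cells, although the highest single cell, D4, was Ly6c2-negative. Irf8 was present in 2 of 10 Ly6c2-positive and 6 of 10 Ly6c2-negative cells, a difference of -40 points. Some markers of other cell types also differed. Ly6g was present in 7 of 10 Ly6c2-positive and 0 of 10 Ly6c2-negative cells, S100a8 in 3 and 0, and Ighm in 0 and 7. Other neutrophil markers were closer to even, with Csf3r in 5 and 4 and Cxcr2 in 6 and 4, or in none, as were S100a9, Retnlg, Ltf and Lcn2. The neutrophil list summed to 0 to 1768 FPKM in Ly6c2-positive cells, highest in A10, and 0 to 191 FPKM in Ly6c2-negative cells. The B cell list summed to 0 FPKM and to 0 to 1045 FPKM. The part of such transcripts in the values of Klf4 and Irf8 was not tested. Klf2, with 5 and 4 cells, and Nr4a1, with 6 and 7 cells, were close to even. With presence set at 50 FPKM, Klf4 was in 5 of 10 Ly6c2-positive and 2 of 10 Ly6c2-negative cells and no longer passed 50 points. With each of the 20 cells left out in turn the Klf4 difference was 57.8 to 68.9 points at 1 FPKM. It was highest with 8 of 10 and 1 of 9 cells, as without C7, and with 8 of 9 and 2 of 10, as without B7. From 8 of 10 against 2 of 10 cells, no single removal could bring it under 50 points, so these runs could not fail.

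**Figure D4:**
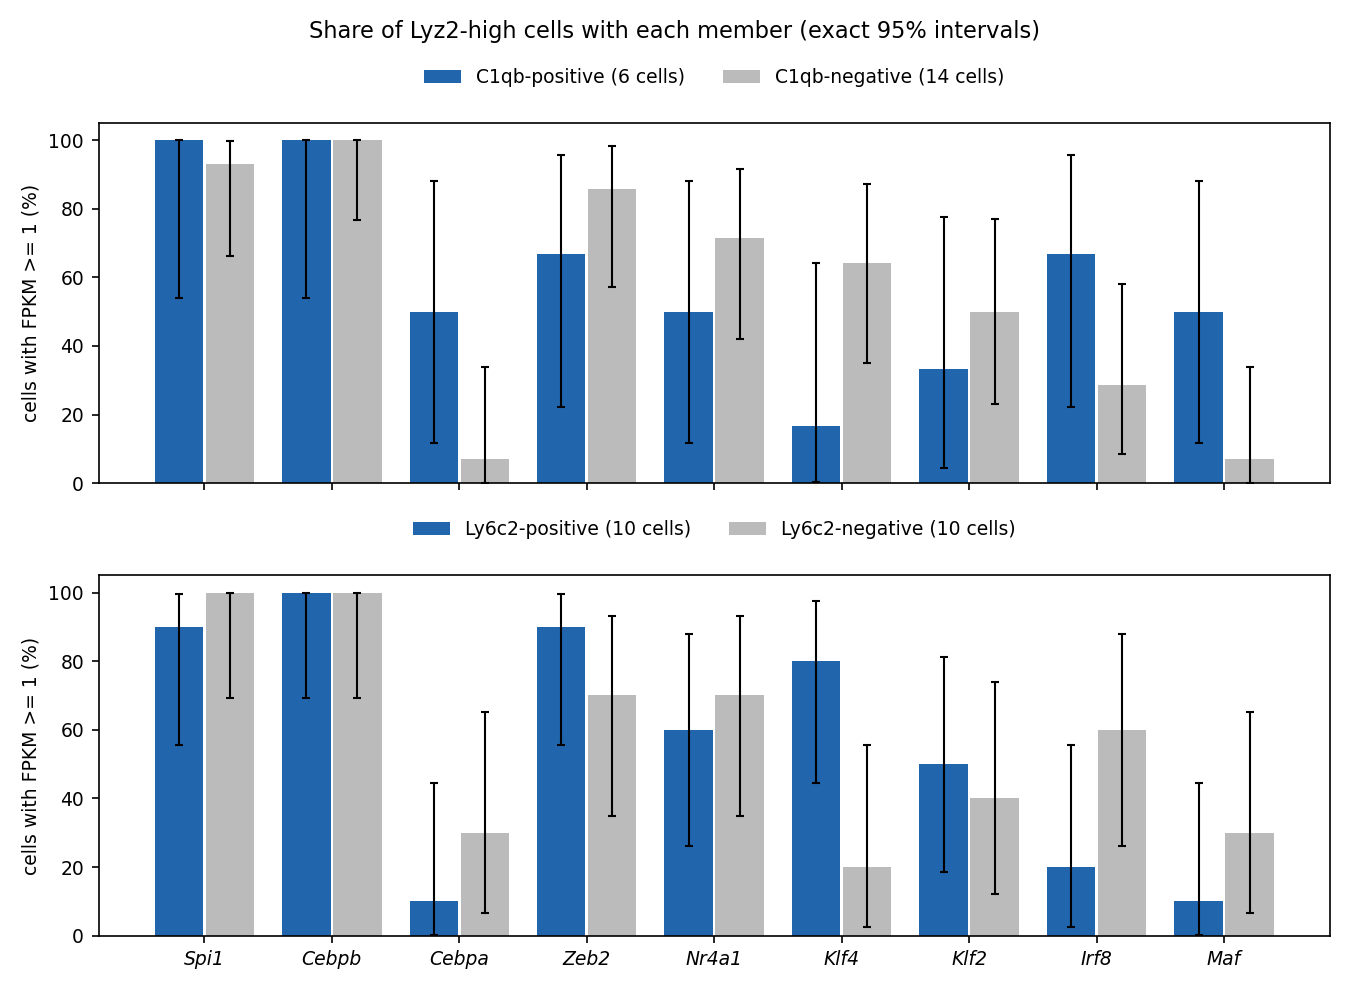
Percent of Lyz2-high cells in which each factor was present, with exact 95% intervals, for C1qb-positive and C1qb-negative cells (upper panel) and for Ly6c2-positive and Ly6c2-negative cells (lower panel). Klf4 is lower in C1qb-positive cells (1 of 6 against 9 of 14) and higher in Ly6c2-positive cells (8 of 10 against 2 of 10), and the intervals overlap for every factor.

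Cell D4 combined the highest levels of Klf2, Klf4 and Irf8 with 7 factors in all. It also held 6 of 8 nonclassical monocyte markers, a number matched only by G8 among the 20 cells. Ear2, an eosinophil-associated ribonuclease, had 4258 FPKM, Cd300e had 379 FPKM and Spn, which encodes CD43, had 377 FPKM. Ace, for angiotensin-converting enzyme, had 118 FPKM, and Treml4 and Eno3 were at 0. D4 lacked Ly6c2, C1qb and Ccr2, the chemokine receptor of classical monocytes. Its Lyz2 level of 4075 FPKM was above that of C7 alone among the Lyz2-high cells, and its Nr4a1 level of 275 FPKM was within the range of the others. G8 differed from D4 in its factors: it held Treml4 at 983 FPKM and Gngt2 at 3643 FPKM together with Ly6c2 at 650 FPKM. Klf4 was at 164 FPKM and Nr4a1 at 416 FPKM in G8, while Klf2 and Irf8 were at 0. The nonclassical list was thus found both with and without Klf2 and Irf8, in 1 cell each.

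**Figure D5:**
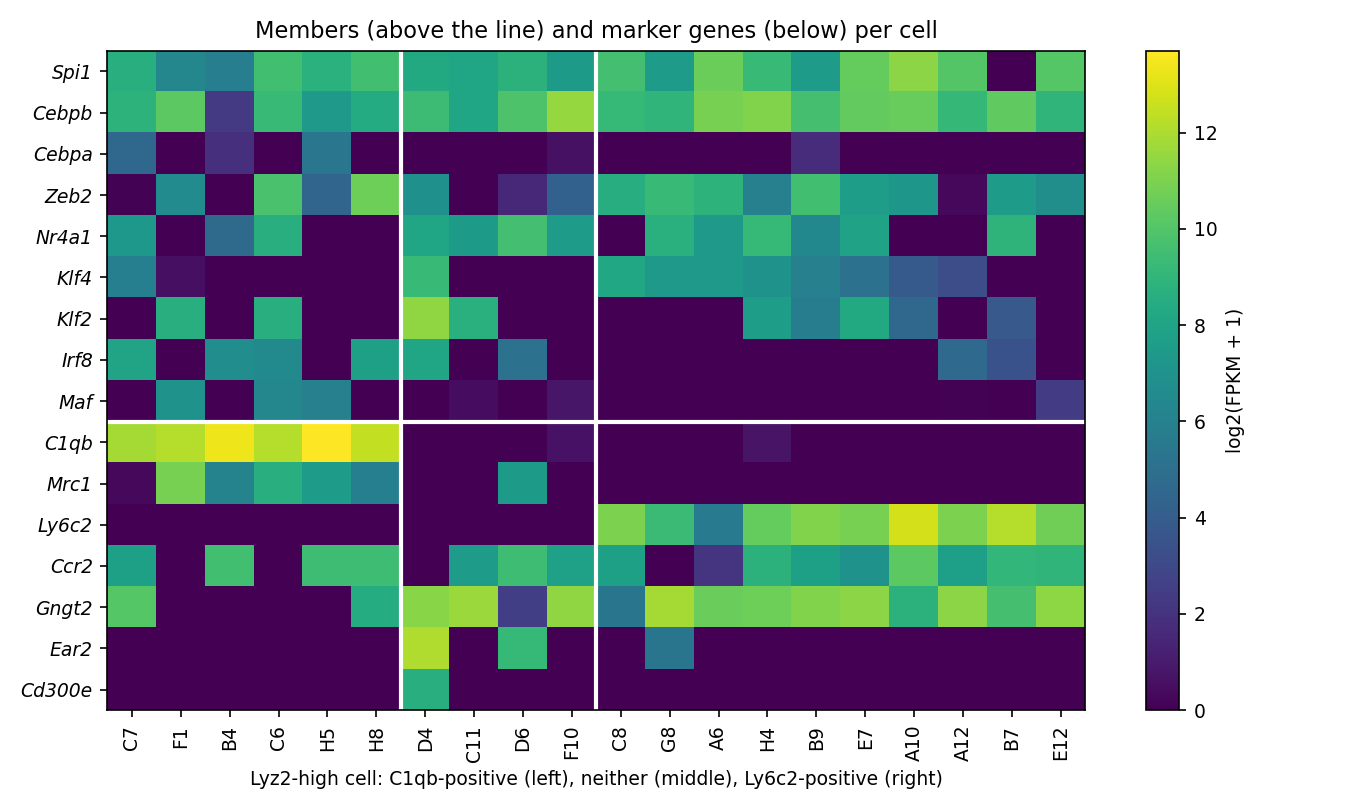
Heat map of log2(FPKM + 1) for the 9 factors (above the line) and 7 marker genes (below it) in the 20 Lyz2-high cells, with C1qb-positive cells on the left, cells with neither marker in the middle and Ly6c2-positive cells on the right. Klf4 is present in 8 of the 10 cells on the right, Maf above 50 FPKM in 3 cells on the left, and Klf2, Klf4 and Irf8 are all highest in D4.

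Other transcription factors of the same families were mostly sparse. Of 83 in 7 lists, 12 were present in at least 50% of Lyz2-high cells (14.5%, against 13.2% of all genes) and 24 were present in none. Among Krüppel-like factors, Klf6 was present in 20 of 20 cells at a median of 299 FPKM, Klf13 in 13, Klf10 in 11 and Klf3 in 9, and 8 of the 15 listed were in none. Among Maf relatives, Nfe2l2, which encodes the stress-response factor NRF2, was present in 17 cells. Mafg was present in 8 and Mafk in 7.

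Interferon regulatory factors were led by Irf5, a factor of inflammatory macrophages, in 14 cells, with Irf1 and Irf2 in 7 each and Irf9 in 6. Irf4 was in none. Of the C/EBP partners, Atf4, the factor of the amino acid stress response, was present in 13 cells, Cebpz in 9, Jdp2 in 5 and Cebpd and Batf in 4 each, while Cebpe, a granulocyte factor, was absent. Among immediate early relatives of Nr4a1, Nr4a3 was present in 9, Nr4a2 in 8, Egr1 in 7 and Egr2 in 5. Egr1 was present in 6 of 6 C1qb-positive and 1 of 14 C1qb-negative cells, whereas Nr4a1 was present in 3 and 10 of these. Of the ETS family to which PU.1 belongs, Etv3 was present in 9, Ets2 in 8 and Elf1 and Etv6 in 7 each, and the close relative Spib in none. Among other lineage factors Hif1a, Stat3 and Runx1 were each present in 14 cells and Tcf4 and Runx3 in 12 each. Of the 27 listed, 9 were in none: Pparg, Zbtb46, Gata1, Gata2, Gfi1, Myb, Zeb1, Id1 and Bhlhe41. Pparg encodes a factor of alveolar macrophages and Zbtb46 one of dendritic cells.

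Genes with known input from these factors were read from the same cells. In the list with PU.1 or C/EBP input, 8 of 10 genes were present in at least 50% of Lyz2-high cells. The share of all 10818 genes that did so was 13.2%. Lyz2, Tyrobp, Cybb and Csf1r were in 20 of 20. Lyz2 was used to choose the cells and the reporter of Csf1r to sort them, so neither is a finding, though both are among the 8. The lists were also chosen with earlier results of these data known, so their counts are not a test against 13.2%. Cell B7, with Spi1 at 0, still held Csf1r, Cybb and Tyrobp. Of 7 genes of the IRF8 and antigen presentation list 4 reached 50%, beside the same 13.2% of all genes: Cst3 was in 20 cells, Cd74 in 17, H2-Ab1 in 15 and H2-Aa in 13. H2-Aa was present in 6 of 6 C1qb-positive and 7 of 14 C1qb-negative cells. Of the 10 tissue macrophage genes listed, F13a1 was in 14 cells, C1qc in 8 and C1qa, C1qb and Mrc1 in 6 each, and Cd163, Lyve1 and Timd4 were in none. F13a1 was present in 1 of 6 C1qb-positive and 13 of 14 C1qb-negative cells. In the nonclassical monocyte list Gngt2 was present in 16 cells, Itgal in 12, Cx3cr1 in 9 and Spn in 6. Of the genes listed for KLF2, Txnip was in 6 cells, Cd36 in 3, S1pr1 in 1 and Thbd in none.

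The genes whose pattern was most like that of each factor were ranked by Pearson r of log2(FPKM + 1) over the 20 Lyz2-high cells, among 3693 genes present in at least 5 of them. Cebpa and Maf, present in 4 cells each, were not ranked. The values below are descriptions, and all points share the depth of their library. For Nr4a1 the highest were Ccrl2 (r = 0.80), Nfkbiz (0.79) and Pim1 (0.70). Ccrl2 encodes an atypical chemoattractant receptor, Nfkbiz an inducible IκB protein and Pim1 a serine/threonine kinase. Without A10, 1 of the 7 Lyz2-high cells with Nr4a1 at 0 FPKM, these were 0.79, 0.78 and 0.76. The other cells at 0 remained, so these values cannot show how far the likeness rests on such cells. By Spearman's rho, which uses ranks, Ccrl2 had 0.41, Nfkbiz 0.73 and Pim1 0.71, so the likeness of Ccrl2 was weaker on that measure.

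For Irf8 the highest were Ccdc88a (r = 0.81), Fkbp1a (0.80) and Txndc17 (0.78), and for Klf2 they were Zbed5 (0.81), Ccar1 (0.79) and Slc43a2 (0.79). Zbed5 reached 7.16 FPKM at most, so its likeness rests on low values. For Klf4 they were Itgb7, the integrin β7 gene (r = 0.79), Dennd5a (0.73) and ENSMUSG00000068638 (0.70), which has no symbol in the tables used. Without D4 these 9 values lay between 0.67 and 0.82. All cells without each factor remained, so these values cannot show how far the likeness rests on such cells. For Zeb2 the highest values were lower, with Gm43498 and Rnf216 at 0.60 and Rpl8 at 0.58.

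The likeness of Spi1 and Cebpb to other genes rested on 1 cell each. For Spi1, Fcer1g (r = 0.72), Atp6v0c (0.70) and Rap1b (0.66) fell to -0.31, -0.24 and 0.23 without B7, the cell with no Spi1. For Cebpb, Rpl13 (r = 0.83), Rps15a (0.82) and Arpc5 (0.80) fell to 0.30, 0.31 and 0.27 without B4. Among the 9 factors themselves r was 0.41 at most, for Cebpb with Zeb2, and -0.45 at the lowest, for Maf with Klf4.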

How the data were processed

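Per the labels' protocols, sorted cells were captured on a Fluidigm C1 chip, poly(A) RNA was amplified by SMARTer chemistry and Nextera XT was used for unstranded libraries. RSEM, Trimmomatic and CASAVA 1.8 are named in the submitters' processing notes, with GRCm38 as the build; annotation release and settings are not stated there. The authors deposited expected counts, which are estimated reads per gene, and FPKM values, which are scaled to transcript length and library size. Amplified copies count as reads, since the labels describe no molecular identifiers. In the count matrix 31 of 75 columns matched sample titles, and the other 44 were not used. No libraries were identical, and the highest correlation between 2 cells was 0.564. Of 47069 gene identifiers 46488 had a symbol. Loci came from GENCODE M21, 1-based.

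The 9 factors and the gene lists were chosen with earlier results of these data known. Presence was FPKM 1 or more. Shares have exact Clopper-Pearson 95% intervals, and 0 of n allows 3 in n. Expected co-detection was the product of both shares times the number of cells. The genes named are the 9 factors, the 3 most alike for each, and the 4 members of each list in most Lyz2-high cells. A few genes covered by this rule are not reported here. Genes named with values outside this rule, such as Egr2, Thbd, Tmem189, Zeb2os and markers of single cells, were chosen after their values were seen. Read sharing was measured as identical 50-base stretches of GENCODE transcripts. A planned comparison of protein sequences was not made. Scripts used Python 3.11.15, numpy 2.4.6, pandas 2.3.3, scipy 1.17.1 and matplotlib 3.10.9, and were tested on simulated data. Leaving out each cell in turn and the Ly6c2 division were chosen after seeing the data. Alternatives were other presence minimums (FPKM 5 and 50, counts of 1 and 10), thinning, other sets of cells, other scalings, pseudocounts and measures of likeness.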

Additional observations from a re-analysis of the deposited data

How the results depend on the processing

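No paired analysis was possible because all 31 cells form 1 group and no test was made. Under the alternatives run, the 9 shares of Lyz2-high cells stayed within their exact intervals, except Cebpa, whose share was 0% at FPKM 50 or more. The number of factors in at least 50% of Lyz2-high cells and the median number per cell were within 1.5 times their values under every alternative run, and the 9 median levels moved within the spread between cells under other scalings and cell sets. The number of factor pairs above expectation, 1 in the report, was 2 at FPKM 5, 4 at FPKM 50, 3 at counts of 1 or more and of 10 or more, 2 after thinning to 120829 counts (presence at 1 count or more, here and below), 2 in the 25 cells with Lyz2 at FPKM 100 or more and 0 when an excess of 2 cells was asked. The factors that differed by 50 points with C1qb, 0 in the report, were 1 at FPKM 5 (Maf), 2 at FPKM 50 (Maf and Irf8), 1 after thinning (Cebpa) and 2 in the 17 cells with Lyz2 at FPKM 10000 or more (Klf4 and Irf8). With Ly6c2 the count, 1 in the report (Klf4), was 2 at FPKM 50 (Irf8 and Zeb2). Other transcription factors in at least 50% of Lyz2-high cells, 12 in the report, were 6 at FPKM 50. Of the 21 genes ranked most like a factor, 12 remained at a pseudocount of 10 and 10 with Spearman's rho, including none of the 3 for Spi1. With each Lyz2-high cell left out in turn, the number of pairs above expectation was 0 to 1, the C1qb count 0 to 2, the Ly6c2 count 1 to 1, the factors in at least 50% of cells 4 to 5 and the median per cell 5 to 5. The causes of these moves were not tested. Leaving out 1 cell could not take the Ly6c2 count below 1, since Klf4 lay at 60 points with all cells. Cells with at least 80% nuclear protein-coding counts and with at least 500000 counts were the same 20 cells. With 20 cells, the exact interval of a share of 50% runs from 27.2% to 72.8%, which limits every comparison of shares.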
